A study of Mus musculus with 6 samples.

Results

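The 10 amino acid transporter genes Slc7a5, Slc3a2, Slc1a5, Slc1a4, Slc7a1, Slc7a6, Slc7a11, Slc38a1, Slc38a2 and Slc43a1 were examined in mouse CD8+ T cells. They were found by gene symbol among the 54446 genes of the deposited annotation, and each symbol matched 1 gene. RNA-Seq libraries of CD8+ T cells, isolated by negative selection from spleens of wild type C57BL/6 mice of 8 weeks of age, were available for 3 groups with 2 libraries each. Unstimulated cells were fresh cells without culture. Control cells were activated for 72 h on plates coated with antibodies to CD3 and CD28, without magnets. SMF cells were activated in the same way on permanent magnets that gave a static magnetic field of 0.3 T. All groups shared the strain, the age and the isolation, and the labels did not say whether the 2 libraries of a group came from separate animals, so that p-values measure only the spread between these libraries. The levels given here are FPKM (fragments per kilobase of transcript, scaled to the mapped fragments of the library) that the authors computed per transcript, summed over the transcripts of a gene. They are per length, so that levels of different genes can be set side by side. Such an order can still depend on the transcripts to which the fragments of a gene were assigned.

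Resting T cells carry few amino acid transporters, and a T cell that has met antigen enlarges, divides and takes up leucine, glutamine and arginine from its surroundings to build proteins and nucleotides. Large neutral amino acids enter mainly through LAT1, a pair made of the light chain Slc7a5, which carries out the transport, and the heavy chain Slc3a2 (CD98), a single-pass glycoprotein that brings the light chain to the plasma membrane. The same heavy chain serves the light chains Slc7a6 (y+LAT2) and Slc7a11 (xCT). Leucine that enters this way feeds the mTORC1 kinase, and the transcription factor ATF4, made when amino acids run short, is known to induce many of these transporters.

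To show the DNA before 2 of the genes, the 250 bases upstream of the RefSeq transcription start (GRCm38.p6) were read for 7 of the 10 genes that had an entry. Slc7a5, Slc1a5 and Slc38a1 had none. 2 motifs were looked for on both strands. The first was TGATGNAA, the letters of the element bound by ATF4 and C/EBP partners, which was found in 3.45% of all 32851 promoter windows of this length. The second was CACGTG, the E-box bound by Myc among other factors, which was found in 6.02% of them. Slc7a11 is shown since it held the ATF4 letters at 2 places, 66 and 47 bases before its start, here in capitals, the second as its reverse complement. Slc7a1 is shown as a gene whose RNA rose in both comparisons with unstimulated cells. It held neither motif, and so has no capitals. The Slc7a11 sequence lies at chr3:50443614-50443863 and that of Slc7a1 at chr5:148399905-148400154, both on the minus strand.
Slc7a11: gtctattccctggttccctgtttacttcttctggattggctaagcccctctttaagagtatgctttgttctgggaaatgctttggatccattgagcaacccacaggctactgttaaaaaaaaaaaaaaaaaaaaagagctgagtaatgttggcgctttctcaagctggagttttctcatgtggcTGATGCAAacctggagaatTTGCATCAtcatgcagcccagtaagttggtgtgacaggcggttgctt
Slc7a1: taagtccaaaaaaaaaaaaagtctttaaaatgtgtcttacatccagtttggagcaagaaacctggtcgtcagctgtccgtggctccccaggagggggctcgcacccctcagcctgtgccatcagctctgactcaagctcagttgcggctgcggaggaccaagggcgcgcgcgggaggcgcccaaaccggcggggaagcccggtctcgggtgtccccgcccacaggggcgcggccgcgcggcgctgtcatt
CACGTG was found before Slc43a1 alone, 64 bases from its start. A match is a run of letters and not a measured binding site, and a missing match says only that the letters were not in this window.

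The libraries differed in ways that bear on every comparison below. The headers of the deposited files named a folder dated June for the first Unstimulated and the first Control library, November of the same year for the second of each, and October of the next year for both SMF libraries. Control and unstimulated cells could therefore be compared within each date, whereas the field and the date cannot be told apart in any comparison that involves SMF cells. The spread behind the p-values was pooled over the 3 groups, and the SMF libraries added no spread between dates to it. Covered bases, the coverage of each transcript times its length, are a measure of depth. Summed over transcripts, they came to 67.4 and 132 Mb in unstimulated cells, 64.4 and 172 Mb in control cells and 259 and 227 Mb in SMF cells. Read totals were not given in the sources used here. Protein-coding genes held 68.7% and 69.2% of all FPKM in the SMF libraries and 49.1% to 50.5% in the other 4 libraries. All 7 markers of CD8+ T cells were above 1 FPKM in each library, and they summed to 812 and 961 FPKM in unstimulated cells, 488 and 684 FPKM in control cells and 1090 and 1001 FPKM in SMF cells. Among them, Cd8a was at 92.5 and 105 FPKM in unstimulated cells, 35.5 and 60.0 FPKM in control cells and 192 and 186 FPKM in SMF cells. Both SMF libraries were also above all others for Cd3d, Cd3g and Trac, but not for Cd3e, Lck and Cd8b1. Cd8b1 was at 143 and 271 FPKM in unstimulated cells, 50.3 and 123 FPKM in control cells and 94.6 and 91.9 FPKM in SMF cells. The activation markers Il2ra, Gzmb, Tfrc, Mki67 and Cd44 summed to 29.8 FPKM in both Unstimulated libraries, to 1697 and 1813 FPKM in control cells and to 2669 and 4708 FPKM in SMF cells, with Gzmb the highest of them in each stimulated library. B cell and myeloid markers were highest in unstimulated cells. The 7 B cell markers summed to 311 and 289 FPKM in unstimulated cells, 48.2 and 45.4 FPKM in control cells and 73.4 and 67.8 FPKM in SMF cells, with most of the last from Ighm. The 8 myeloid markers came to 136 and 160 FPKM in unstimulated cells and 41.1 to 53.8 in stimulated cells, where Csf1r gave nearly all of it and at least 6 of the 8 were listed at 0. The 4 NK cell markers summed to 18.5 and 10.5 FPKM in unstimulated cells and to at most 2.29 FPKM in stimulated cells, and the 7 erythroid markers to 18.3 and 21.8 FPKM and to at most 10.1 FPKM. The 4 markers of CD4+ T cells, led by Foxp3 in each library, summed to 31.2 and 14.5 FPKM in unstimulated cells, 12.8 and 22.8 FPKM in control cells and 12.8 and 13.5 FPKM in SMF cells, so that the sums overlapped between unstimulated and control cells. Foxp3 and Cd4 overlapped between these groups, but Cd40lg and Zbtb7b did not. Cd40lg was at 6.21 and 2.335 FPKM in unstimulated cells and listed at 0 in all stimulated ones. Zbtb7b was at 2.25 and 2.54 FPKM and at most 1.72 FPKM. The part of the CD8+ T cell markers and of these other cells in the levels of the transporters was not tested.

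The filter for testing, an average of 1 FPKM or more, was passed by 8 transporters. Of these, 4 had higher RNA levels in control than in unstimulated cells, namely Slc7a5, Slc1a5, Slc7a1 and Slc43a1. Unstimulated cells were fresh, so that stimulation and the 72 h of culture cannot be told apart in this comparison. Slc3a2, Slc7a6, Slc38a1 and Slc38a2 did not pass the test in control against unstimulated cells. A gene is said to have risen or fallen where limma gave a fold change of FPKM + 1 of at least 2 with an unadjusted p of at most 0.05, the thresholds of the study, and the p adjusted over all 14991 genes tested by the Benjamini-Hochberg method is given beside it. Of all genes tested, 12.3% rose and 12.6% fell by this rule in control against unstimulated cells. With an adjusted p of at most 0.05 in its place, 8.43% of all genes passed in either direction, Slc7a5 and Slc7a1 among them. These adjusted calls depended on which libraries were fitted: over all genes they numbered 1263, and 6 with the 2 groups alone. They were fewer in each fit with a library left out, where 1 group held a single library. With no filter the adjusted p was 0.0509 for Slc7a5 and 0.0520 for Slc7a1. In SMF against unstimulated cells, 5 of the 8 transporters rose (Slc7a5, Slc3a2, Slc1a5, Slc7a1 and Slc7a6) and none fell by limma (of all genes, 22.4% rose and 14.8% fell). With the adjusted p 3 of them passed, as did 23.3% of all genes, 3500 in number and 3024 with the 2 groups alone. These adjusted calls, too, were fewer in each fit with a library left out. In this comparison 3351 genes rose and 2226 fell in the values as deposited, 2756 rose and 2694 fell with each library shifted to the same median, and 2347 rose and 2978 fell with each library rescaled to the same FPKM sum over protein-coding genes. In control against unstimulated cells the same counts were 1838 and 1886 as deposited, 2011 and 1685 after the shift and 1622 and 2181 after the rescaling. The 2 comparisons share the Unstimulated libraries. In bulk libraries, fewer cells of another type and more RNA per T cell cannot be told apart.

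**Figure D1:**
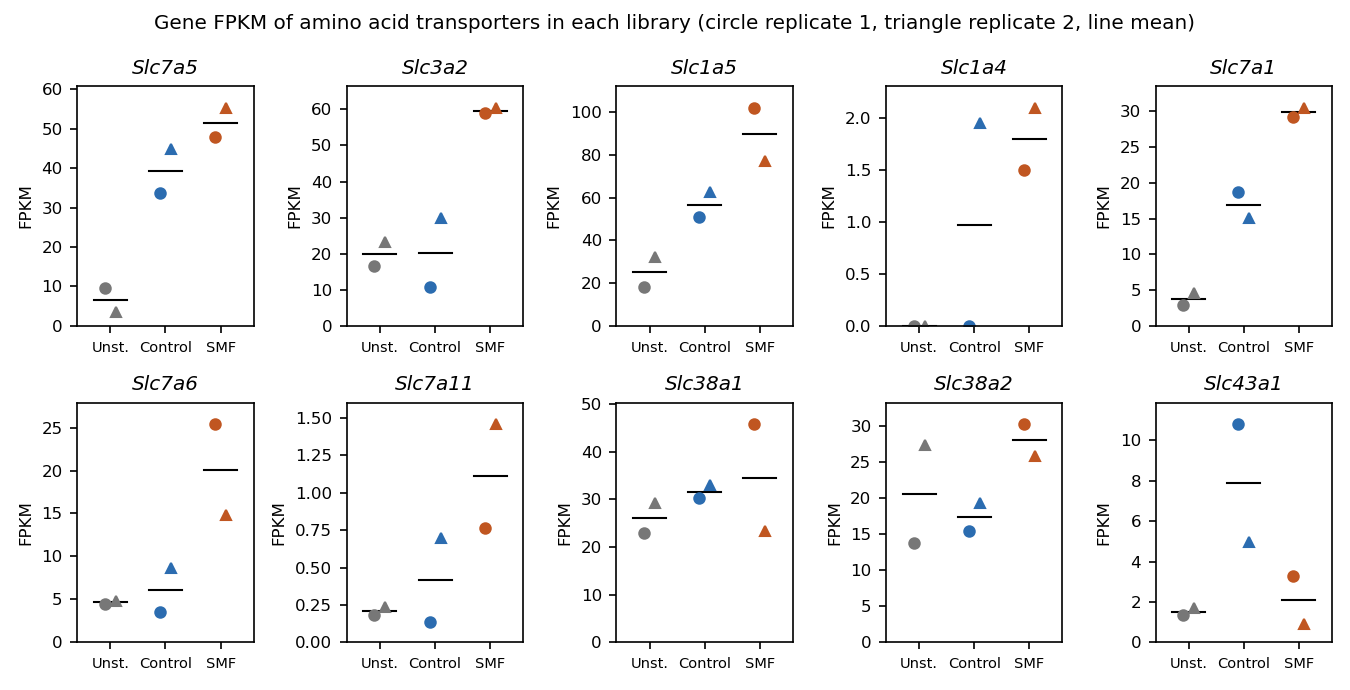
FPKM of the 10 transporter genes (y axis, linear, a scale of its own for each gene) in the Unstimulated, Control and SMF libraries (x axis). Circles are replicate 1, triangles replicate 2 and lines the mean of the 2 libraries; Slc7a5 and Slc7a1 separate unstimulated from stimulated cells, whereas Slc3a2 was at 58.9 and 60.4 FPKM in SMF cells and at most 29.9 FPKM in the other libraries.

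Slc7a5 showed the largest difference of the 8 tested transporters between control and unstimulated cells. Its gene (ENSMUSG00000040010.10, chr8:121881150-121907694, minus strand, GRCm38) was at 9.54 and 3.41 FPKM in unstimulated cells, at 33.7 and 44.9 FPKM in control cells and at 47.8 and 55.3 FPKM in SMF cells. All stimulated libraries were above both unstimulated ones, and both SMF libraries were above both Control libraries. The fitted log2 fold change was 2.55 (SE 0.48) for control against unstimulated cells, a 5.86-fold rise of FPKM + 1 with an adjusted p of 0.0313. It was 2.94 for SMF against unstimulated cells, with an adjusted p of 0.0117. Between SMF and control cells it was 0.39 (SE 0.48), which did not pass the test (adjusted p = 0.669). Within the dates, control exceeded unstimulated cells by 1.72 on the log2 scale in June and by 3.38 in November. The 10-exon coding transcript ENSMUST00000045557.9 carried 85.2% to 100% of the gene's FPKM, so the sum over transcripts was close to its level.

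The heavy chain Slc3a2 passed the test against unstimulated cells in SMF cells and not in control cells. Whether it differed from its partner in this was not tested. The gene (ENSMUSG00000010095.13, chr19:8706882-8723369, minus strand) was at 16.5 and 23.1 FPKM in unstimulated cells, at 10.7 and 29.9 FPKM in control cells and at 58.9 and 60.4 FPKM in SMF cells. The Control libraries lay on either side of the Unstimulated ones, and the SMF libraries lay above all others. The log2 fold change of control against unstimulated cells was -0.11 (SE 0.51, adjusted p = 0.920), and its sign turned to 0.59 when the first Control library was left out. In SMF cells Slc3a2 rose by a log2 fold change of 1.56 against unstimulated cells (SE 0.51, adjusted p = 0.0712) and of 1.67 against control cells (SE 0.51, adjusted p = 0.174). Against unstimulated cells it no longer passed with the protein-coding rescaling (1.09), without the first or second Unstimulated library (1.33 and 1.80) or without the first or second SMF library (1.58 and 1.54). Against control cells it no longer passed with the 2 groups alone or without any 1 library other than the second Control library. There the SMF mean was 2.38 above the first Control library and 0.97 above the second, and without the first SMF library the difference was 1.69 and without the second 1.66.

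Setting heavy against light chains, the ratio of Slc7a5 to Slc3a2 FPKM was 0.579 and 0.147 in unstimulated cells, 3.16 and 1.50 in control cells and 0.811 and 0.914 in SMF cells. By summed FPKM, the Control libraries held more Slc7a5 than Slc3a2 RNA, and the other 4 libraries held less. All light chains that pair with Slc3a2, with Slc7a7, Slc7a8 and Slc7a10 added, summed to 1.46 and 0.860 times Slc3a2 in unstimulated cells, 3.82 and 2.04 times in control cells and 1.299 and 1.298 times in SMF cells. By coding transcripts alone the order was different. Coding Slc3a2 was at 8.39 FPKM in the second Unstimulated library, and the coding light chains came to 1.37 and 2.37 times coding Slc3a2 in unstimulated cells, 3.82 and 1.82 times in control cells and 1.20 and 1.23 times in SMF cells, so that the Unstimulated and Control ratios overlapped. The ratio of Slc7a5 to Slc3a2 on coding transcripts stayed above 1 in both Control libraries (3.16 and 1.34) and below 1 in the others. The order in SMF cells was the reverse by the share of covered bases per kilobase of a gene's longest transcript. On that measure Slc7a5 was at 57.3 and 64.2 in SMF cells and Slc3a2 at 44.0 and 40.8. These ratios describe RNA, were not tested and do not give amounts of protein.

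**Figure D2:**
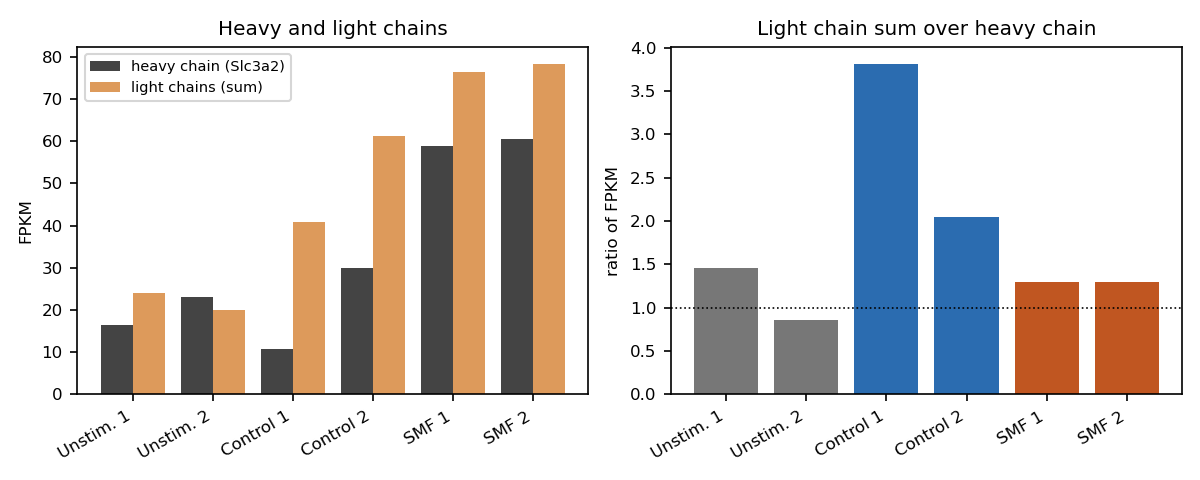
Left, FPKM of the heavy chain Slc3a2 and the summed FPKM of its light chains (y axis, linear from 0) in each library; right, the light chain sum divided by Slc3a2 (y axis, from 0, dotted line at 1). Bars are single libraries; the ratio was 3.82 and 2.04 in the Control libraries and between 0.860 and 1.46 in the others, with all transcripts of a gene summed.

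Slc7a6 pairs with the same heavy chain and exchanges cationic for neutral amino acids. Its gene (ENSMUSG00000031904.5, chr8:106168857-106198706, plus strand) was at 4.49 and 4.81 FPKM in unstimulated cells, at 3.49 and 8.61 FPKM in control cells and at 25.4 and 14.8 FPKM in SMF cells. The SMF libraries were above all others, and the Control libraries lay on either side of the unstimulated ones. By the sum over transcripts it rose in SMF against control cells, with a log2 fold change of 1.64 (SE 0.54, adjusted p = 0.186), and in SMF against unstimulated cells, with 1.85 (adjusted p = 0.0531). The full-length coding transcript, ENSMUST00000034378.4 of 3750 bases and 10 exons, was at 4.49 and 4.81 FPKM in unstimulated cells, 3.49 and 6.68 FPKM in control cells and 4.86 and 5.34 FPKM in SMF cells, and its SMF and control means differed by 0.05 on the log2 scale, less than the libraries of a group differed from each other. The excess in SMF cells lay in the 766-base, 4-exon transcript ENSMUST00000211824.1, at 14.7 and 5.20 FPKM, and in the retained-intron transcript ENSMUST00000213020.1, at 5.87 and 3.57 FPKM. Both were listed at 0 in the other 4 libraries. FPKM counts a fragment on a short transcript for more than one on a long transcript. The gene was therefore also measured by its share of all covered bases, per kilobase of its longest transcript. The log2 difference between SMF and control cells was then 0.97 and no longer passed the test. This measure was chosen after the values were seen. The gene sum also no longer passed in SMF against control cells with the 2 groups alone, without either Unstimulated library, or without the first Control library (1.09) or the first SMF library (1.27). In SMF against unstimulated cells it no longer passed with the share of covered bases, where the log2 difference was just under 1, without the first or second Unstimulated library (1.81 and 1.90) or without the first SMF library (1.48).

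**Figure D3:**
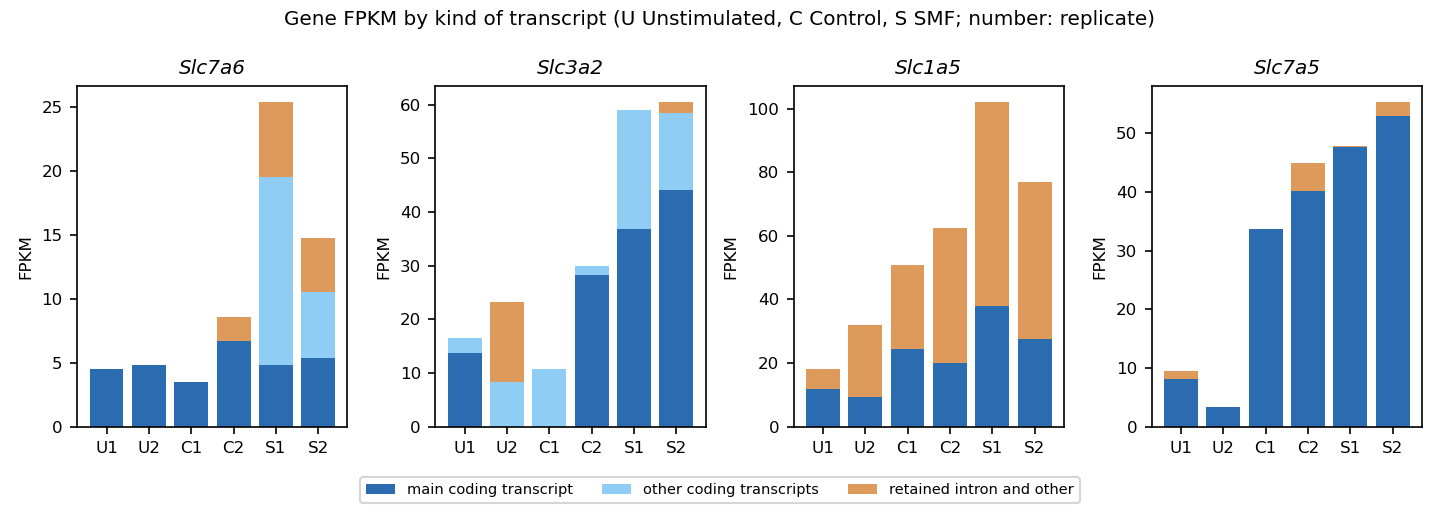
FPKM (y axis, linear from 0) of Slc7a6, Slc3a2, Slc1a5 and Slc7a5 in each library (x axis: U Unstimulated, C Control, S SMF, with the replicate number), stacked by kind of transcript. The main coding transcript of Slc7a6 stayed between 3.49 and 6.68 FPKM in all libraries while its gene sum reached 25.4 FPKM, whereas Slc7a5 was nearly all main coding transcript.

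The transcripts of Slc3a2 changed places between libraries of the same group. The 1819-base coding transcript ENSMUST00000010239.5 was at 13.8 and 0 FPKM in unstimulated cells, 0 and 28.3 FPKM in control cells and 36.7 and 44.1 FPKM in SMF cells. The 2813-base coding transcript ENSMUST00000170157.7 was at 10.7 FPKM in the first Control library and at 0.10 FPKM in the second. In the second Unstimulated library, 63.7% of the gene's FPKM was on an 812-base retained-intron transcript. The use of its transcripts was not compared between groups.

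Slc7a11, the light chain that imports cystine for glutathione, was near the lower limit in all libraries. The gene (ENSMUSG00000027737.10, chr3:49892526-50443614, minus strand) was at 0.180 and 0.234 FPKM in unstimulated cells, 0.139 and 0.698 FPKM in control cells and 0.767 and 1.46 FPKM in SMF cells. Both SMF libraries were above the others, but its mean of 0.579 FPKM was under the filter and it was not tested in the main fit. With no filter its log2 difference was 0.79 for SMF against unstimulated and 0.58 for SMF against control cells. Neither passed.

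Slc1a5 (ASCT2), the main glutamine transporter of activated T cells, was the highest of the 10 in stimulated cells by the sum over transcripts. By coding transcripts alone it was below Slc7a5 in each stimulated library. The gene (ENSMUSG00000001918.17, chr7:16781340-16798274, plus strand) was at 18.2 and 32.1 FPKM in unstimulated cells, 50.8 and 62.5 FPKM in control cells and 102 and 77.0 FPKM in SMF cells. No 2 groups overlapped. It rose in control against unstimulated cells by a log2 fold change of 1.19 (SE 0.37, adjusted p = 0.102, not passed without the first Unstimulated library, at 0.79, or the second Control library, at 1.04) and in SMF against unstimulated cells by 1.83 (adjusted p = 0.0194). The difference between SMF and control cells, 0.64 (SE 0.37, adjusted p = 0.358), did not pass the test. Only 29.5% to 65.4% of its FPKM was on the coding transcript ENSMUST00000108496.8, which was at 11.9 and 9.48 FPKM in unstimulated cells, 24.5 and 20.1 FPKM in control cells and 37.9 and 27.6 FPKM in SMF cells. The groups again did not overlap on this transcript alone. With coding transcripts alone or the share of covered bases, however, Slc1a5 no longer passed in control against unstimulated cells. The retained-intron transcript ENSMUST00000127401.7 was at 37.3 and 32.2 FPKM in SMF cells and at most 13.1 FPKM elsewhere.

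Slc1a4 (ASCT1), the related exchanger of serine and alanine, was listed at 0 in both Unstimulated libraries and in the first Control library. It was at 1.95 FPKM in the second Control library and at 1.50 and 2.10 FPKM in SMF cells. Its mean of 0.925 FPKM left it untested in the main fit, and with no filter it passed in no comparison.

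Slc7a1 (CAT1), which imports arginine and lysine, rose in control against unstimulated cells. The gene (ENSMUSG00000041313.14, chr5:148327410-148399904, minus strand) was at 2.92 and 4.67 FPKM in unstimulated cells, 18.6 and 15.0 FPKM in control cells and 29.2 and 30.5 FPKM in SMF cells. The 3 groups did not overlap. The log2 fold change was 1.91 for control against unstimulated cells (SE 0.38, adjusted p = 0.0364), with 2.33 in June and 1.50 in November. It was 2.71 for SMF against unstimulated cells, with an adjusted p of 0.00835. SMF exceeded control cells by 0.80 (SE 0.38, adjusted p = 0.295), which did not pass. At least 74.4% of its FPKM was on the 13-exon coding transcript ENSMUST00000048116.14 in each library.

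Slc38a1 and Slc38a2 (SNAT1 and SNAT2), sodium-coupled carriers of glutamine and alanine, passed no test. Slc38a1 (ENSMUSG00000023169.15, chr15:96571418-96642913, minus strand) was at 23.0 and 29.2 FPKM in unstimulated cells, 30.2 and 33.1 FPKM in control cells and 45.7 and 23.4 FPKM in SMF cells. The SMF libraries lay on either side of both Control values. Its log2 fold change was 0.28 (SE 0.40) for control against unstimulated cells and 0.05 for SMF against control cells. With coding transcripts alone the first of these was 0.95, the highest of its alternatives, and did not pass either. The single-exon retained-intron transcript ENSMUST00000229253.1 of Slc38a1 was at 12.2 and 8.53 FPKM in unstimulated cells, 7.36 and 0.34 FPKM in control cells and 0.55 and 0.68 FPKM in SMF cells. Slc38a2 (ENSMUSG00000022462.7, chr15:96687392-96699730, minus strand) was at 13.8 and 27.4 FPKM in unstimulated cells, 15.4 and 19.3 FPKM in control cells and 30.2 and 25.8 FPKM in SMF cells. The Control libraries lay between the unstimulated ones, and both SMF libraries were above both Control libraries. The log2 difference was -0.16 (SE 0.42) for control against unstimulated cells and 0.66 (SE 0.42, adjusted p = 0.401) for SMF against control cells.

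Slc43a1 (LAT3), a carrier of leucine and other branched-chain amino acids that needs no heavy chain, was the gene that was lower in SMF than in control cells. The gene (ENSMUSG00000027075.16, chr2:84838850-84863594, plus strand) was at 1.37 and 1.68 FPKM in unstimulated cells, 10.8 and 4.95 FPKM in control cells and 3.30 and 0.900 FPKM in SMF cells. Both Control libraries were above all others. It rose in control against unstimulated cells by a log2 fold change of 1.73 (SE 0.65, adjusted p = 0.156), with 2.32 in June and 1.15 in November. It no longer passed with a pseudocount of 0.1 (2.20) or 5 (0.94), with no filter, with TPM, with the 2 groups alone, without the first or second Unstimulated library (1.64 and 1.82) or without the first Control library (1.24). The SMF minus control difference was -1.55 (SE 0.65, adjusted p = 0.245). Its unadjusted p was just above the threshold. It fell with each library shifted to the same median (-1.89), with the protein-coding rescaling (-1.77), with no variance trend, with the share of covered bases (-1.60), without the second Control library (-2.04) and without the first SMF library (-2.14).

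**Figure D4:**
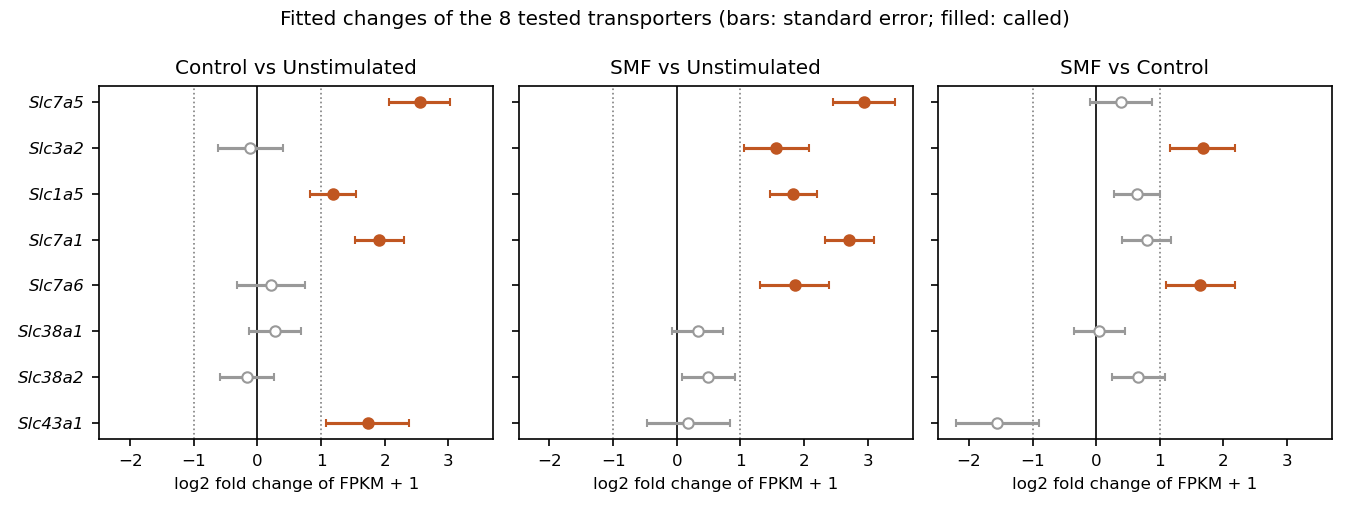
Log2 fold change of FPKM + 1 (x axis) of the 8 tested transporters (y axis) for control against unstimulated, SMF against unstimulated and SMF against control cells. Bars are the standard errors of the limma fit, filled points passed the thresholds and dotted lines mark a fold change of 2; only Slc3a2 and Slc7a6 passed in SMF against control cells.

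In SMF against control cells, 2 of the 8 tested transporters rose, Slc3a2 and Slc7a6. Of all genes tested, 12.5% rose and 5.72% fell in this comparison. None of the transporters passed with the adjusted p, and 0.0267% of all genes did. No transporter fell in this fit. The median log2 difference was 0.65 over the 8 transporters and 0.32 over all genes tested, where 0 would be no shift of the whole table. When each library was shifted to the same median, 877 genes rose and 1441 fell, against 1868 and 857 in the values as deposited. With each library rescaled to the same FPKM sum over protein-coding genes, 931 rose and 1307 fell. Slc3a2 and Slc7a6 rose under both scalings, by 1.33 and 1.29 after the shift and by 1.35 and 1.33 after the rescaling. Of all 10 transporters, 7 had both SMF libraries above both Control libraries and 1, Slc43a1, had both below (37.4% of the 14991 tested genes were above and 17.4% below, whereas the 10 include 2 genes under the filter). In SMF against unstimulated cells 7 of the 10 did not overlap, all higher (39.7% of the tested genes). In control against unstimulated cells 5 of the 10 did not overlap, all higher (24.8% of the tested genes). The median log2 difference of the 8 was 0.73 for control against unstimulated cells, against -0.05 over all genes, and 1.70 for SMF against unstimulated cells, against 0.27.

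By the sum over transcripts, the order of the levels changed between the groups. In unstimulated cells Slc38a1, Slc1a5, Slc38a2 and Slc3a2 led with means of 26.1, 25.2, 20.6 and 19.8 FPKM, and each overlapped the next. In control cells Slc1a5 led with 56.7 FPKM, before Slc7a5 with 39.3 and Slc38a1 with 31.6 FPKM, and none of these overlapped the next. In SMF cells Slc1a5 led with 89.5 FPKM, before Slc3a2 with 59.7 and Slc7a5 with 51.5 FPKM, again without overlap. Coding Slc38a1 was at 10.9 and 12.5 FPKM in unstimulated cells, Slc1a5 at 11.9 and 9.48, Slc38a2 at 11.7 and 25.2 and Slc3a2 at 16.5 and 8.39 FPKM. These ranges overlapped, so that no order is given for them. By coding transcripts alone Slc1a5 did not lead in stimulated cells. In control cells coding Slc7a5 was at 33.7 and 40.1 FPKM and coding Slc1a5 at 24.5 and 20.1 FPKM. Coding Slc38a1 was at 17.8 and 30.7 FPKM there, and at 40.8 and 9.92 FPKM in SMF cells. In SMF cells coding Slc3a2 was at 58.9 and 58.4 FPKM, Slc7a5 at 47.6 and 53.0 FPKM and Slc1a5 at 37.9 and 27.6 FPKM. The 10 genes summed to 90.02 and 127 FPKM in unstimulated cells, 174 and 221 FPKM in control cells and 345 and 292 FPKM in SMF cells.

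The genes whose pattern over the 6 libraries was most like that of Slc7a5 were taken among 6922 genes, by the root mean square of the differences in log2(FPKM + 1) after each gene was centred on its own mean. The 5 nearest protein-coding genes were Sema7a (0.152), a membrane-bound semaphorin, Kif15 (0.198), a kinesin of the mitotic spindle, Pmf1 (0.206), a kinetochore protein, Slc16a3 (0.213), the lactate exporter MCT4, and Nup93 (0.216), a nuclear pore protein. Of the transporters, Slc7a1 came nearest at rank 251 (0.615), followed by Slc1a5 at rank 987. The partner Slc3a2 was at rank 2948 (1.23).

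Around these carriers, 5 lists of related genes were examined. For comparison, 12.3% of all genes tested rose and 12.6% fell in control against unstimulated cells. In SMF against control cells 12.5% rose and 5.72% fell. Of 37 other plasma membrane amino acid transporters only 10 passed the filter. In control against unstimulated cells 1 rose, the glycine transporter Slc6a9 (log2 fold change 2.30, adjusted p = 0.147), and 2 fell, with the neutral amino acid transporter Slc6a19 the most (-2.36, adjusted p = 0.0667). Slc6a9 was listed at 0 in both Unstimulated libraries and Slc6a19 in all stimulated ones. In SMF against control cells 3 rose, led by the aromatic amino acid carrier Slc16a10 (1.75, adjusted p = 0.179), which was at 1.21 and 2.61 FPKM in control and 7.67 and 9.50 FPKM in SMF cells. The LAT4 gene Slc43a2 fell (-1.93, adjusted p = 0.206), from 60.9 and 31.0 FPKM to 10.9 and 10.5 FPKM, and its exons overlap those of the antisense gene Gm45606. Exons of Slc6a9 also overlap other genes on the opposite strand, as did those of 25 of the 63 tested genes of the 5 lists, whereas no exon of the 10 transporters overlapped another gene. Of 5 tested genes of the lysosomal list, none passed in control against unstimulated cells or in SMF against control cells, by limma. In SMF against unstimulated cells 2 fell, beside 14.8% of all genes. Slc36a1, also known from lysosomes, was counted in the plasma membrane list and is named after its values were seen. It fell in control against unstimulated cells (-2.26, adjusted p = 0.0706) and rose in SMF against control cells (1.72, adjusted p = 0.198) by limma.

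Within the cell, carriers of the inner mitochondrial membrane pass amino acids on, and enzymes turn them into nucleotides, polyamines and glutathione. Of 10 tested mitochondrial carriers, 2 rose and 1 fell in control against unstimulated cells, with the aspartate-glutamate carrier Slc25a13 up (1.66, adjusted p = 0.108) and the serine carrier family member Sfxn3 down (-2.35, adjusted p = 0.0952). In SMF against control cells 5 rose and none fell, with a list median of 1.43 beside 0.32 over all genes. The ornithine carrier Slc25a15 led (1.88, adjusted p = 0.195), from 0 and 0.346 FPKM to 4.20 and 2.49 FPKM. Under the shift to 1 median none of these 5 calls remained. Of 27 tested enzymes, 8 rose and 1 fell in control against unstimulated cells. Bcat1, the cytosolic branched-chain aminotransferase, went from 0 in both Unstimulated libraries to 14.9 and 20.1 FPKM in control cells (log2 fold change 4.20, adjusted p = 0.00799), and was at 52.7 and 45.5 FPKM in SMF cells. The glutathione synthetase Gss fell (-1.95, adjusted p = 0.0767). Of the 27 enzymes, 13 rose and 3 fell in SMF against unstimulated cells, beside 22.4% and 14.8% of all genes. In SMF against control cells 8 enzymes rose and none fell, beside 12.5% of all genes that rose. The 8 became 5 with the shift to 1 median, 4 with the rescaling, 5 without the first Control or the second SMF library and 2 without the first SMF library. Cad, which begins pyrimidine synthesis from glutamine, led. Cad was at 3.18 and 13.0 FPKM in control cells and 52.8 and 75.5 FPKM in SMF cells (3.07, SE 0.70, adjusted p = 0.141).

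The list of the ATF4 and amino acid shortage response held 12 tested genes. Of these, 5 rose and none fell in control against unstimulated cells, with a list median of 1.07 beside -0.05 over all genes. Asns, the asparagine synthetase, which also stands in the list of enzymes, went from 0 in both Unstimulated libraries to 9.95 and 18.0 FPKM (log2 fold change 3.85, SE 0.67, adjusted p = 0.0257). The other 4 that rose, named after their values were seen, were Atf4 itself (1.21, adjusted p = 0.0925), Ddit4 (1.52, adjusted p = 0.0553) and Eif4ebp1 (2.94, adjusted p = 0.0419), which restrain mTORC1 signalling or the translation it drives, and Trib3 (2.24, adjusted p = 0.0640), a pseudokinase induced by ATF4. Against unstimulated cells, 8 of the 12 rose and none fell in SMF cells, beside 22.4% of all genes that rose. The list median was 1.60 there, beside 0.27 over all genes. In SMF against control cells none of the 12 passed in either direction by limma, also without adjustment of p, and the list median was -0.04 beside 0.32 over all genes.

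**Figure D5:**
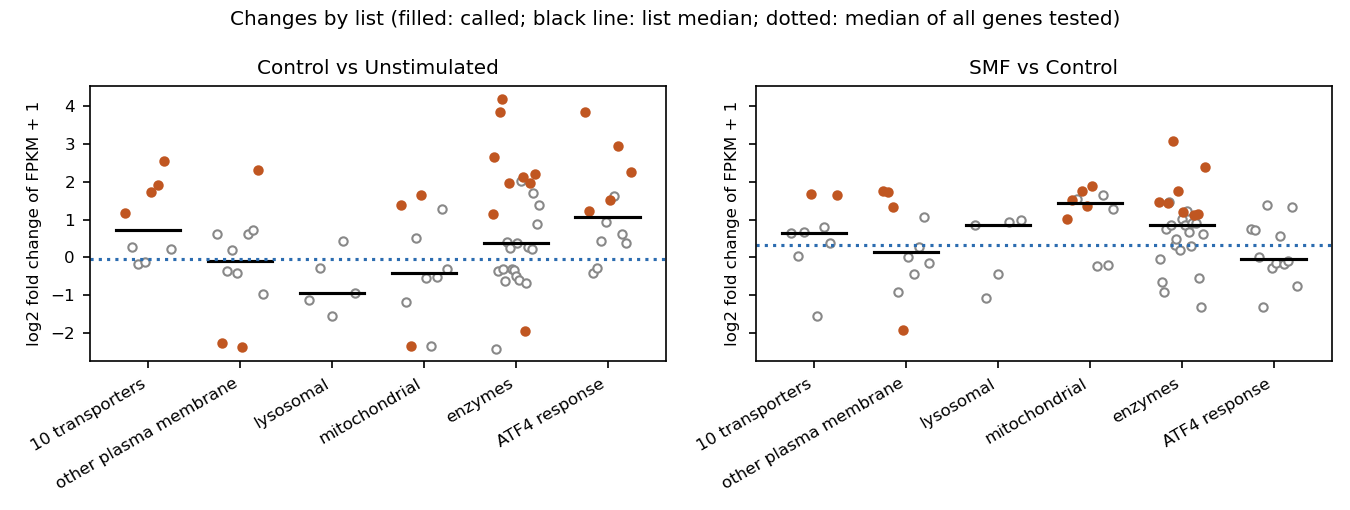
Log2 fold change of FPKM + 1 (y axis) of each tested gene of the 10 transporters and the 5 related lists (x axis), for control against unstimulated cells (left) and SMF against control cells (right). Filled points passed the thresholds, black lines are list medians and the dotted line is the median of all genes tested; the ATF4 list has a median of 1.07 on the left and -0.04 on the right.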

How the data were processed

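The authors prepared strand-marking libraries of total RNA with a SMARTer Pico Input kit and sequenced them on an Illumina instrument. The submitters' processing notes name Trimmomatic 0.36, HISAT2, StringTie and the build mm10. Per the file headers, StringTie 1.3.5 was run on each library against GENCODE M19 without new transcripts, and the deposited files hold coverage, FPKM and TPM per transcript. A further table of the whole series, with 3 FPKM columns that matched no sample, was not used, and the HISAT2 version and read totals were not given in the sources used here.

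FPKM was summed per gene. Of 54446 genes, 14991 had a mean of at least 1 FPKM and were tested on log2(FPKM + 1) with limma 3.58.1 (R 4.3.3, lmFit and eBayes with trend and 3 groups fitted over all 6 libraries, leaving 3 residual degrees of freedom). Fold changes on this scale understate those of low genes. Calls needed a fold change of at least 2 and p of at most 0.05, the thresholds of the study. Adjusted p-values are Benjamini-Hochberg over all genes tested. The code was tested on simulated data.

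The transporters and lists were chosen with earlier results of these data known. Besides the 10 transporters, the text names the largest rise and fall of each list in control against unstimulated and SMF against control cells, the 5 genes nearest to Slc7a5, and marker genes. Same-numbered Unstimulated and Control libraries share a folder date in the headers, but the labels give no pairing and the correlations of deviations were 0.096, 0.030 and 0.021 over the 3 pairs of groups, so the replicate block was kept as an alternative. The alternatives were pseudocounts of 0.1 and 5, no filter or one of 5 FPKM, 2 other scalings, TPM, no variance trend, the 2 groups alone, a replicate block, each library left out and the adjusted p. Coding transcripts alone (types from GENCODE M21) and the share of covered bases were added after the values were seen. Promoter windows came from RefSeq on GRCm38.p6. Intervals that need read counts could not be given.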

Additional observations from a re-analysis of the deposited data

Results flagged for a closer look

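The direction of control against unstimulated cells differed between the 2 dates for 4 transporters, and the difference was not tested, since each date holds 1 library per group. On the log2(FPKM + 1) scale, control minus unstimulated cells was -0.58 in June and 0.36 in November for Slc3a2. For Slc7a6 the values were -0.29 and 0.72, and for Slc7a11 -0.051 and 0.46. For Slc38a2 they were 0.15 and -0.48. Covered bases of the first Control library, the one of June, were the lowest of all at 64.4 Mb, against 172 Mb in the second, and the part of depth in these values was not tested.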

How the results depend on the processing

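Calls are counts of genes past the thresholds, and the cause of a change was not tested. Slc7a5 and Slc7a1 kept their direction and their calls against unstimulated cells under each of the 18 alternatives run for them, and Slc1a5 in SMF against unstimulated cells. Of the transporters that rose, 4 in control against unstimulated cells became 2 with the adjusted p, 3 with either pseudocount, no filter, the filter of 5 FPKM, TPM, the 2 groups alone, coding transcripts alone or the share of covered bases, and 2 to 4 with a library left out (2 without the first Unstimulated library). The 5 in SMF against unstimulated cells became 3 with the adjusted p, 4 with the rescaling or the share of covered bases, and 3 to 5 with a library left out (3 without either Unstimulated library or the first SMF library). The 2 in SMF against control cells became 0 with the 2 groups alone or the adjusted p, 1 with the share of covered bases (Slc3a2), and 0 to 2 with a library left out (0 without either Unstimulated library, the first Control or the first SMF library, 1 without the second SMF library). Slc43a1, not called lower in SMF against control cells, became the 1 transporter that fell there with the median shift, the protein-coding rescaling, no variance trend or the share of covered bases, and 0 to 1 fell with a library left out (1 without the second Control or the first SMF library). The replicate block left the log2 differences of the transporters as they were and changed none of their counts (4, 5 and 2 rose). It moved the mitochondrial carriers called in SMF against control cells from 5 to 3 and the ATF4 list called in SMF against unstimulated cells from 8 to 5.

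Signs turned for Slc3a2 in control against unstimulated cells (0.57 with coding transcripts alone, 0.17 with the share of covered bases, 0.12 without the second Unstimulated and 0.59 without the first Control library, in a range of -0.81 to 0.59 with a library left out) and for Slc7a6 there (-0.33 without the second Control library, in a range up to 0.77), neither being called. They turned for Slc38a2 there (0.30 without the second Unstimulated library, in a range from -0.63). Slc38a1 turned in SMF against unstimulated cells (-0.14 with the rescaling and without the first SMF library, in a range up to 0.80) and in SMF against control cells (-0.29 with the median shift, -0.27 with the rescaling, -0.19 with coding transcripts, -0.11 with the share of covered bases, -0.01 without the first Control and -0.42 without the first SMF library, in a range up to 0.52). Slc43a1 turned in SMF against unstimulated cells (-0.071 with the shift, -0.11 with the rescaling and -0.41 without the first SMF library, in a range up to 0.77).

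Other plasma membrane transporters called in either direction went from 3 in control against unstimulated cells to 0 with a pseudocount of 5 or the adjusted p and to 1 with the filter of 5 FPKM or coding transcripts alone, from 4 in SMF against unstimulated cells to 2 with that filter, and from 4 in SMF against control cells to 1 with a pseudocount of 5, 2 with that filter, coding transcripts or the share of covered bases, and 0 with the adjusted p. With a library left out they were 2 to 3, 2 to 4 and 0 to 4. Lysosomal transporters went from 0 in control against unstimulated cells to 1 with no filter, the rescaling, TPM or no trend, from 2 in SMF against unstimulated cells to 0 with a pseudocount of 5 or the adjusted p and 1 with the filter of 5 FPKM, and from 0 in SMF against control cells to 1 with the shift, the rescaling, coding transcripts or the share of covered bases. With a library left out they were 0 to 1, 0 to 2 and 0 to 1. Mitochondrial carriers went from 3 in control against unstimulated cells to 1 with the filter of 5 FPKM and 0 with the adjusted p, from 3 in SMF against unstimulated cells to 1 with that filter, and from 5 in SMF against control cells to 0 with a pseudocount of 5, the shift or the adjusted p, 1 with a pseudocount of 0.1, the filter of 5 FPKM or the rescaling, and 3 with no filter or the share of covered bases. With a library left out they were 2 to 4, 2 to 3 and 0 to 5. Enzymes went from 9 in control against unstimulated cells to 4 with the adjusted p, and from 8 in SMF against control cells to 5 with a pseudocount of 5 or the shift, 4 with the rescaling and 0 with the adjusted p. With a library left out they were 6 to 9, 13 to 14 and 2 to 8. The ATF4 list went from 5 in control against unstimulated cells to 3 with coding transcripts and 2 with the adjusted p, from 8 in SMF against unstimulated cells to 4 with a pseudocount of 5, the filter of 5 FPKM, the rescaling or the adjusted p and 5 with the shift, and from 0 in SMF against control cells to 1 with the 2 groups alone. With a library left out they were 4 to 6, 5 to 7 and 0 to 1. Over all genes, calls in SMF against control cells were 4 with the adjusted p. With 2 libraries per group and without read totals, small differences could not be resolved.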
